A study of Mus musculus with 6 samples.

Results

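Mitochondrial fatty acid oxidation was examined through 10 enzymes and carriers in a mouse model of peritoneal dialysis (PD). The cells were isolated as peritoneal endothelial cells (ECs). The 10 genes, Cpt1a, Cpt1b, Slc25a20, Cpt2, Acadvl, Acadl, Acadm, Hadha, Hadhb and Hadh, were taken by symbol from the 22183 genes of the deposited count table, and each symbol had its row. RNA was sequenced from 3 saline mice and 3 PD mice, with a library for each mouse. All were wild-type male C57BL/6J mice, 8 to 10 weeks old by the study's methods, injected into the peritoneal cavity every day for 6 weeks. Saline mice received saline, and PD mice received PD fluid with 4.25% glucose. The methods describe no kidney failure in these mice.

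Long-chain fatty acids cannot cross the inner mitochondrial membrane as CoA esters. They are passed onto carnitine by carnitine palmitoyltransferase 1 (CPT1), carried inward by the transporter encoded by Slc25a20, and returned to CoA by CPT2. Acyl-CoA dehydrogenases, the mitochondrial trifunctional protein and a shorter-chain hydroxyacyl-CoA dehydrogenase then shorten the chain in repeated cycles. In ECs, which draw most of their ATP from glycolysis, carbon from fatty acid oxidation is known to feed nucleotide synthesis in proliferating vessels.

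PD fluid exposure went with a higher transcript level of the entry enzyme Cpt1a and of the dehydrogenase Acadl, and with a lower level of the carrier Slc25a20, of Cpt2 and of Hadhb, with the direction of Cpt1a and Acadl reversed under scaling to endothelial marker genes. Cpt1a went from 67.7 ± 5.01 to 97.7 ± 4.62 CPM (SD, n = 3 mice), a unit that sets the count of a gene against the total of its library, and Acadl from 62.7 ± 1.53 to 79.9 ± 2.71 CPM. The 3 lower genes changed less, by 0.18 to 0.27 on the log2 scale, and their calls were fragile. With each mouse left out in turn, Slc25a20 was called in 1, Cpt2 in 2 and Hadhb in 4 of 6 fits. Acadvl, Acadm, Hadha and Hadh were not called, and Cpt1b was near the floor of detection in every mouse. Library sizes were adjusted by the TMM method of edgeR, and a gene was called when its p in the quasi-likelihood test of edgeR, adjusted by the Benjamini-Hochberg method over 14005 genes, was under 0.05.

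These calls stood against a very broad difference between the groups. Of all genes tested, 58.9% were called, 31.1% as higher and 27.8% as lower in PD mice. Among the 9 fatty acid oxidation genes tested, 5 were called, 2 as higher and 3 as lower, which is close to those shares. The groups did not overlap for 6 of the 9 genes, 2 higher and 4 lower, beside 65.6% of all genes tested. The median log2 fold change was -0.10 for the 9 genes and 0.02 for all genes. Summed over the 10 genes, the level was 957 ± 34.1 CPM with saline and 924 ± 35.01 CPM with PD fluid (SD over 3 mice each), with overlap between the groups.

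The cells behind the libraries differed between the groups. Isolation is given in the sample labels as magnetic selection of CD31+ cells, whereas the study's methods give a digested mesentery sorted for cells with CD31 and without CD45. Total counts per mouse lay between 21973426 and 26374292. Pecam1, which encodes CD31, was at 145 ± 4.44 FPKM with saline and 158 ± 5.11 FPKM with PD fluid, a unit that sets the level per transcript length. Ptprc, which encodes CD45, was higher than Pecam1 in every mouse, at 624 ± 30.2 and 392 ± 7.73 FPKM (SD over 3 mice each). The libraries thus held transcripts of leukocytes as well as of ECs. Summed over 12 endothelial markers, saline mice had 1172 to 1195 CPM and PD mice had 1907 to 2036 CPM. Of the 12, 11 were called higher, all but Pecam1 (log2 fold change 0.13, adjusted p = 0.0704). B cell markers ran the other way, with 8 of 8 lower, from 6035 to 6335 CPM down to 2831 to 2847 CPM, as did 5 of 6 general leukocyte markers, from 8923 to 9518 CPM down to 6471 to 6678 CPM. Macrophage markers were higher in 10 of 10, at 2358 to 2496 CPM against 9678 to 10388 CPM, and neutrophil markers in 6 of 7 tested, at 15.9 to 18.5 against 207 to 223 CPM. Mesothelial (8 of 8, 15.1 to 19.1 against 161 to 188 CPM), fibroblast (8 of 8, 94.3 to 99.7 against 852 to 889 CPM) and mural cell markers (8 of 8, 279.9 to 299 against 453 to 501 CPM) were higher too. Pancreatic acinar transcripts went from between 2.26 and 5.81 CPM to between 7293 and 8219 CPM, with 10 of 10 tested called higher. In T and NK cell markers 2 of 9 were higher and 3 lower, at 1673 to 1771 against 1384 to 1536 CPM. Hepatocyte markers summed to 11.9 to 15.3 and 15.6 to 18.8 CPM, with Fgb at 0 in all mice, and intestinal markers to 12.1 to 13.9 and 11.7 to 14.7 CPM, with Cdx2 at 0. Of 2 hepatocyte markers tested, 1 was called higher. Of 4 intestinal markers tested, 2 were called higher and 1 lower.

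Adipocytes and striated muscle are rich in fatty acid oxidation enzymes. The adipocyte list summed to 111 to 133 CPM with saline and to 158 to 188 CPM with PD fluid, with 3 of 8 tested higher, the lipases Lipe and Pnpla2 and the droplet protein Plin4. Its defining genes Adipoq (3.21 ± 0.81 and 2.60 ± 0.24 CPM) and Plin1 (0.44 ± 0.23 and 0.65 ± 0.15 CPM) were not called (SD, n = 3 mice). The muscle list summed to 8.58 to 9.65 and 11.1 to 13.8 CPM, with Myh1 and Myh4 at 0 in all mice, Ckm too low to be tested and Acta1 at 0.60 ± 0.32 and 0.40 ± 0.25 CPM, which was not called. Of its 3 genes tested, the actinin gene Actn2 was called higher, at 7.20 ± 1.07 and 10.9 ± 1.35 CPM, and made up most of the sum. In these bulk libraries, fewer cells of a type and less RNA per cell cannot be told apart. The part of these other cell types in the changes described here was not tested.

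Cpt1a encodes the CPT1 isoform of liver and most other tissues, the enzyme that commits long-chain acyl groups to mitochondrial entry and is inhibited by malonyl-CoA. The gene (ENSMUSG00000024900) lies at chr19:3322334-3385733 on the plus strand of GRCm38 in the GENCODE M21 annotation. The 3 saline mice had 73.3, 63.7 and 66.2 CPM, and the 3 PD mice 103, 96.1 and 94.2 CPM. Every PD mouse lay above every saline mouse. The log2 fold change was 0.53 (SE 0.08, 95% interval 0.36 to 0.70, adjusted p = 0.000163), a 1.44-fold difference. With each mouse left out in turn it stayed between 0.49 and 0.60 and was called in 6 of 6 fits. Scaled to the 12 endothelial markers, the median of all genes moved to -0.98 and Cpt1a to -0.47, so that Cpt1a was lower per endothelial marker transcript and still above the typical gene.

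Acadl encodes long-chain acyl-CoA dehydrogenase, which opens each cycle for long and branched chains. It lies at chr1:66830839-66863277 on the minus strand (ENSMUSG00000026003). Saline mice had 62.5, 64.3 and 61.2 CPM, and PD mice 82.5, 80.1 and 77.1 CPM. The groups were well apart, and within each group the mice differed by only a few CPM. On the log2 scale this was a change of 0.35 (SE 0.07, 95% interval 0.20 to 0.50, adjusted p = 0.00114), a 1.27-fold difference. It was called with any 1 mouse left out, at 0.33 to 0.38, and turned to -0.65 under endothelial marker scaling.

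**Figure D1:**
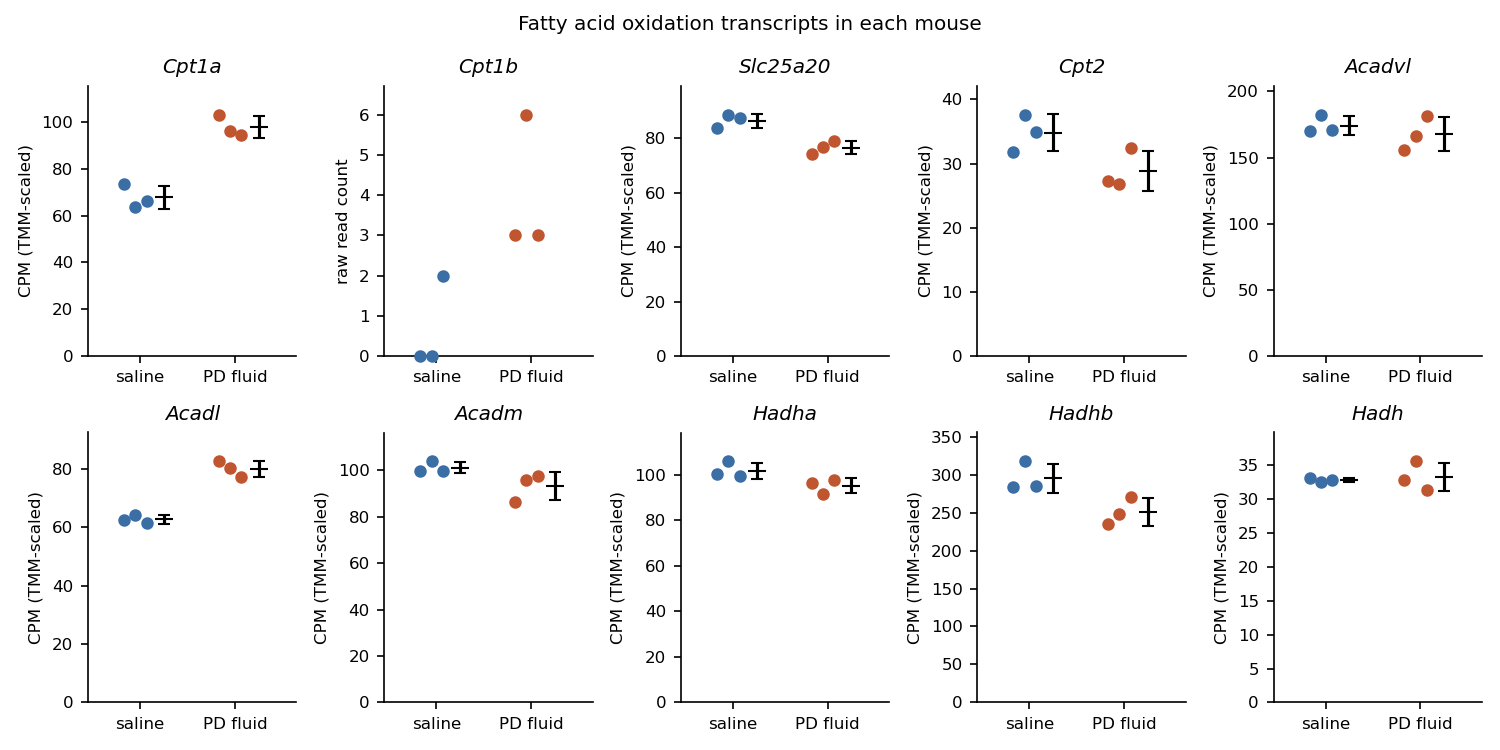
Level of each fatty acid oxidation gene in each mouse, in TMM-scaled CPM (raw read counts for Cpt1b), saline in blue and PD fluid in red, with the group mean and SD as black bars (n = 3 mice, none drawn for Cpt1b). All y axes start at 0. Cpt1a and Acadl in PD mice lie above all saline mice on this scale, an order that turns under endothelial marker scaling, and Slc25a20, Acadm, Hadha and Hadhb lie below.

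The sequence before the start of both genes that were higher is shown because regulators of fatty acid oxidation, such as the PPAR receptors, act through short DNA motifs near their targets. Both windows hold the 250 bases upstream of the RefSeq gene start on GRCm38.p6, read 5′ to 3′ along the gene, at chr19:3323051-3323300 on the plus strand for Cpt1a and chr1:66863310-66863559 on the minus strand for Acadl. The whole Cpt1a window lies inside the gene as bounded by GENCODE M21, which places some starts further upstream, and its last bases lie in an exon. Capitals mark matches on either strand to the GC box (GGGCGG), the NF-Y box (CCAAT) and the nuclear receptor hexamer AGGTCA.
Cpt1a: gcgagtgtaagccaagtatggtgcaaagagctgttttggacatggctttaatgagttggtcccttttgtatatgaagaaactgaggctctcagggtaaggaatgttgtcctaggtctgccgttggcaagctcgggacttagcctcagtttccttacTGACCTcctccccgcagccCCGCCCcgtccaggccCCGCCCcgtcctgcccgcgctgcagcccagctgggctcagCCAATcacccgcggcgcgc
Acadl: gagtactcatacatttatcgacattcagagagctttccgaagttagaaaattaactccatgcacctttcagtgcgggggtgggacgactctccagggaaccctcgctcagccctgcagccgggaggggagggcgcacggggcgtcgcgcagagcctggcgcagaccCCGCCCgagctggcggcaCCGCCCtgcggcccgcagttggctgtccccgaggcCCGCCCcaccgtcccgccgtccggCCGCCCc
The Cpt1a window held 2 GC boxes, an NF-Y box and an AGGTCA hexamer, and the Acadl window held 4 GC boxes and neither of the other motifs. RefSeq windows were given for 9 of the 10 genes, all but Cpt1b. Those of Hadha, Hadhb, Slc25a20 and Cpt2 also lie partly inside their genes as bounded by GENCODE M21. A GC box was present in 7 of these 9, beside 32.7% of 32817 windows of the same length. The windows of Hadha and Hadhb share 228 bases, so they are not separate cases, and 8 of the 9 windows had a GC content of 56.8% to 68.0%, above the median of 52.4% over all windows. The AGGTCA hexamer was present in 3 (Acadm, Acadvl and Cpt1a), beside 14.0%, and the NF-Y box in 2 (Hadh and Cpt1a), beside 33.8%. The direct repeat AGGTCANAGGTCA that PPAR and RXR bind together, the ERR motif TCAAGGTCA, the NRF1 motif and the E-box CACGTG had no match in the 9 windows, beside 0.0335%, 0.387%, 0.777% and 6.02% of all windows. The ERR motif contains the AGGTCA hexamer, so these overlap. Both the genes that were higher and those that were lower held GC boxes.

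Slc25a20 encodes the carnitine-acylcarnitine translocase of the inner membrane. It lies at chr9:108662088-108684641 on the plus strand (ENSMUSG00000032602). The level in saline mice was 83.6, 88.6 and 87.4 CPM, and that in PD mice 74.1, 76.7 and 78.8 CPM. All PD mice were lower than all saline mice, by a small step. It fell by 0.18 on the log2 scale (SE 0.07, 95% interval -0.32 to -0.03, adjusted p = 0.0386). This call was kept in 1 of 6 fits with a mouse left out, the fit without PD mouse 3, and the adjusted p reached 0.119 in the others.

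Cpt2 returns the acyl group from carnitine to CoA on the matrix side. It lies at chr4:107903981-107923610 on the minus strand (ENSMUSG00000028607). Saline mice had 31.8, 37.6 and 34.99 CPM and PD mice 27.2, 26.8 and 32.5 CPM. PD mouse 3 lay within the saline range, above saline mouse 1. The fitted log2 fold change was -0.27 (SE 0.10, 95% interval -0.50 to -0.04, adjusted p = 0.0435). The call was lost without saline mouse 2, saline mouse 3, PD mouse 1 or PD mouse 2, with an adjusted p of up to 0.172.

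Cpt1b encodes the CPT1 isoform of muscle and brown fat. It lies at chr15:89416405-89425863 on the minus strand (ENSMUSG00000078937). Raw counts were 0, 0 and 2 in saline mice and 3, 6 and 3 in PD mice, so the saline mice were at or under the floor of 3 counts and the gene was not tested. No fold is given. GENCODE M21 lists Gm44502, a predicted readthrough transcript from the choline kinase gene Chkb, on the same strand, covering all 9459 bases of Cpt1b and 2744 of its 3372 exonic bases. Gm44502 had 719, 690 and 676 counts in saline mice and 728, 617 and 585 in PD mice, and Chkb 1894 to 2494 counts per mouse. How the authors divided reads that match both Cpt1b and Gm44502 is not given in the sources used here, so the level of Cpt1b is uncertain.

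By these calls the carnitine shuttle differed within itself, with Cpt1a higher and its partners Slc25a20 and Cpt2 lower. The calls of Slc25a20 and Cpt2 were lost in most fits with a mouse left out. The ratio of Cpt1a to Cpt2 within each mouse, with 0.5 CPM added to every gene as in all ratios here, was 2.28, 1.69 and 1.88 in saline mice and 3.73, 3.54 and 2.87 in PD mice. The ranges were apart, and the mean log2 ratio was higher by 0.80 in PD mice. A two-sided exact permutation of the mice could give no p below 0.1 with 3 against 3, and p was 0.1 here (0.2 after adjustment over 6 ratios). The ratio of Cpt1a to Cpt1b depends on what is added to the near-zero Cpt1b, and its mean log2 value differed by 0.19 with 0.5 CPM (exact permutation p = 0.2) and by 0.46 with 5 CPM.

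The other acyl-CoA dehydrogenases did not follow Acadl. Acadvl encodes the very-long-chain enzyme bound to the inner membrane, at chr11:70010183-70015411 on the minus strand (ENSMUSG00000018574). Saline mice had 169.7, 182 and 170.5 CPM and PD mice 156, 166 and 182 CPM, which overlapped. The log2 fold change was -0.05 with a 95% interval of -0.21 to 0.10 (adjusted p = 0.548). Acadvl overlaps Dvl2 on the opposite strand over 1151 exonic bases. Dvl2 was at 16.2 ± 3.10 and 21.3 ± 2.13 CPM (SD, n = 3 mice), and strand-aware counting is not stated, so reads there cannot be assigned with certainty.

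Acadm encodes the medium-chain enzyme, at chr3:153922357-153944632 on the minus strand (ENSMUSG00000062908). Saline mice had 99.5, 104 and 99.8 CPM and PD mice 86.1, 95.6 and 97.3 CPM. The PD values were all below the saline values, yet the log2 fold change of -0.12 (95% interval -0.27 to 0.03) was not called (adjusted p = 0.161). Within each mouse the ratio of Acadl to Acadm was 0.630, 0.621 and 0.615 in saline mice and 0.958, 0.839 and 0.793 in PD mice. The long-chain enzyme therefore gained on the medium-chain enzyme in all 3 PD mice, by 0.47 in mean log2 ratio (two-sided exact permutation p = 0.1, adjusted p = 0.2). The ratio of Acadvl to Acadm overlapped between the groups, with a difference of 0.07 (exact permutation p = 0.2).

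**Figure D2:**
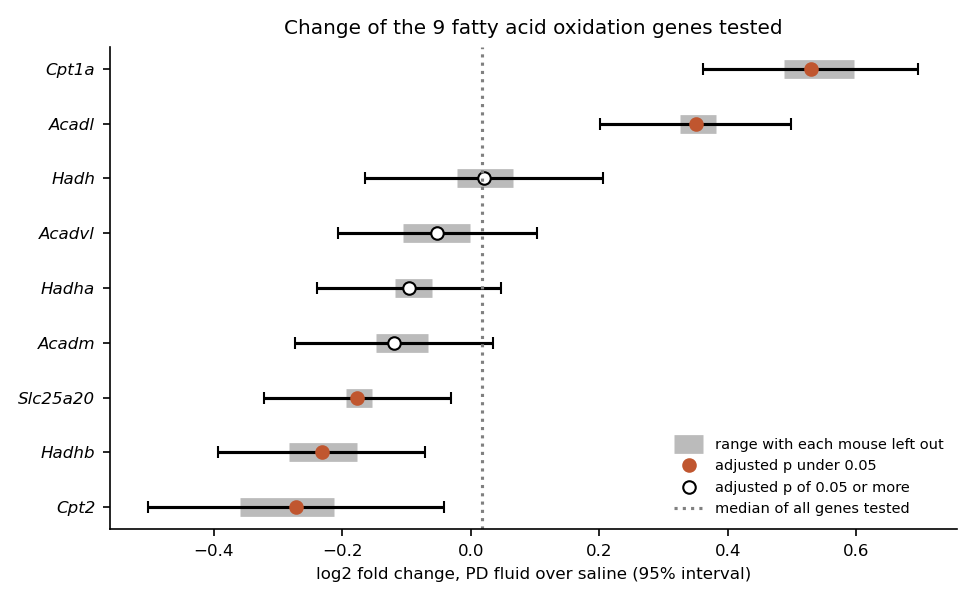
Log2 fold change of the 9 genes tested, PD mice over saline mice, with 95% intervals as black lines, the range over fits with each mouse left out as grey bars, and the median of all genes as a dotted line at 0.02. Filled points were called, with Cpt1a (0.53) and Acadl (0.35) to the right and Slc25a20, Hadhb and Cpt2 to the left, and under endothelial marker scaling all 9 lie left of 0.

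The trifunctional protein pairs an alpha subunit from Hadha, with hydratase and long-chain dehydrogenase activity, with a beta subunit from Hadhb, the thiolase. Hadha lies at chr5:30118304-30155162 on the minus strand (ENSMUSG00000025745) and Hadhb at chr5:30155248-30184593 on the plus strand (ENSMUSG00000059447), head to head. Their annotated starts are 86 bases apart in GENCODE M21 and 273 in RefSeq. The 85 bases between the GENCODE starts, chr5:30155163-30155247 on the plus strand, are shown because any promoter element in them lies upstream of both genes. Capitals again mark the GC boxes.
Hadha-Hadhb: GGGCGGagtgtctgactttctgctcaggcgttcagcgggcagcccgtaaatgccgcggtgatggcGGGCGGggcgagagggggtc
This stretch held 2 GC boxes. Despite the shared start region, the subunit transcripts were not called alike.

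Hadhb was at 283, 317 and 284 CPM with saline and at 234, 248 and 271 CPM with PD fluid. All PD mice were below all saline mice. In the test it fell by 0.23 on the log2 scale (SE 0.07, 95% interval -0.39 to -0.07, adjusted p = 0.0181). The call was lost without PD mouse 1 or PD mouse 2, with an adjusted p of up to 0.0759.

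Hadha was at 100.4, 106 and 99.4 CPM with saline and at 96.4, 91.8 and 97.9 CPM with PD fluid. Its PD values were also all below the saline values, but the log2 fold change of -0.10 (95% interval -0.24 to 0.05) was not called (adjusted p = 0.223). The ratio of Hadha to Hadhb was 0.356, 0.335 and 0.351 in saline mice and 0.413, 0.371 and 0.363 in PD mice. The ranges were apart by a narrow gap, with a difference of 0.14 in mean log2 ratio (two-sided exact permutation p = 0.1, adjusted p = 0.2) that was 0.080 without PD mouse 1.

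Hadh encodes the dehydrogenase for medium and short chains, at chr3:131233419-131272101 on the minus strand (ENSMUSG00000027984). Its values were 33.1, 32.5 and 32.8 CPM with saline and 32.9, 35.6 and 31.4 CPM with PD fluid. The saline mice fell inside the PD range. The log2 fold change of 0.02, with a 95% interval of -0.16 to 0.21, was not called (adjusted p = 0.847). The ratio of Hadha to Hadh differed by -0.11 in mean log2 value, with overlap (exact permutation p = 0.3).

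**Figure D3:**
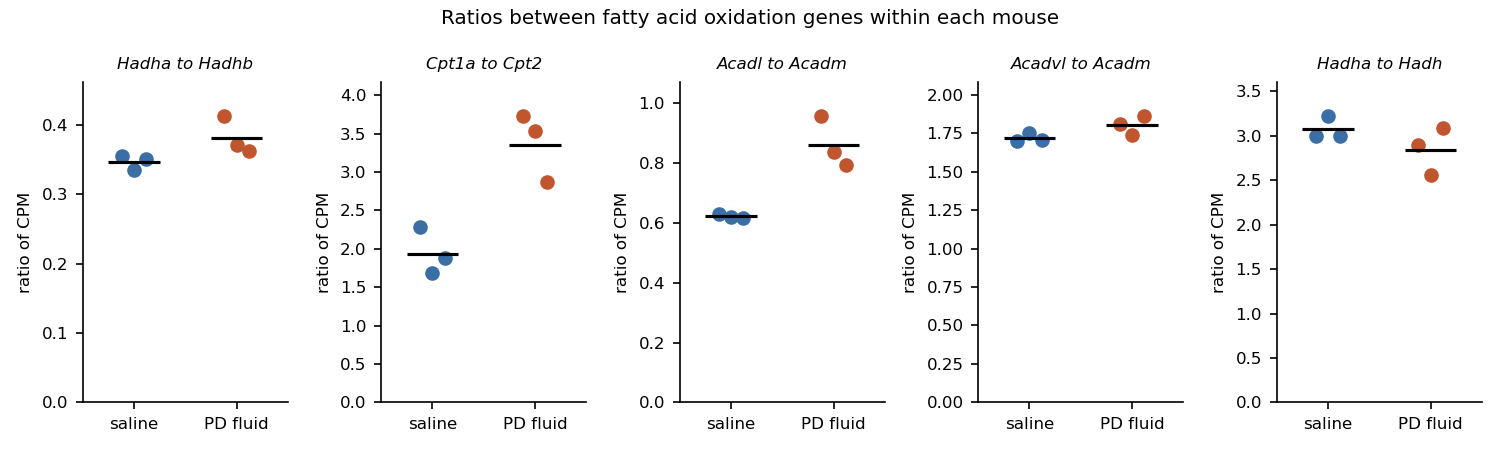
Ratio between the CPM of pairs of fatty acid oxidation genes within each mouse, on axes that start at 0, saline in blue and PD fluid in red, with the geometric mean of each group as a line. The groups are apart for Cpt1a to Cpt2, Acadl to Acadm and Hadha to Hadhb, and overlap for Acadvl to Acadm and Hadha to Hadh.

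Levels of different genes were compared per length, first with the deposited FPKM values. In saline mice Hadhb was highest at 145 ± 8.13 FPKM, followed by Acadvl at 80.0 ± 2.60, Acadm at 52.7 ± 1.49, Slc25a20 at 48.3 ± 1.30, Acadl at 32.6 ± 0.52, Hadha at 25.3 ± 0.67 and Hadh at 18.3 ± 0.29 FPKM (SD, n = 3 mice). Cpt1a at 15.9 ± 1.25 and Cpt2 at 15.5 ± 1.48 FPKM overlapped each other, and Cpt1b was at 0.01 FPKM. On this scale the CPT enzymes were the lowest of the 9 genes measured above the floor.

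In PD mice Acadl, at 41.9 ± 2.54 FPKM, overlapped Slc25a20 at 43.1 ± 0.20 FPKM. Cpt1a, at 22.9 ± 1.74 FPKM, had moved past Hadh at 18.7 ± 1.41 FPKM and overlapped Hadha at 23.8 ± 0.92 FPKM. By FPKM, Cpt2 was last but for Cpt1b, at 12.5 ± 1.15 FPKM (SD, n = 3 mice). The remaining neighbours, Hadhb at 124 ± 5.53, Acadvl at 77.7 ± 3.97 and Acadm at 47.5 ± 2.01 FPKM, kept their places and did not overlap.

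The order depended on the length used. Per kilobase of GENCODE M21 exon length, saline mice had Acadvl highest at 64.8 CPM, above Hadhb at 44.7, Acadl at 31.3, Acadm at 25.8 and Slc25a20 at 17.9 CPM. Lower down came Cpt2 at 14.6, Hadha at 11.7, Cpt1a at 8.86 and Hadh at 6.59 CPM per kilobase, so that Cpt2 was no longer near the bottom and Hadh was. In PD mice Hadh was again lowest on that scale, at 6.69 CPM per kilobase, while Cpt1a at 12.8, Cpt2 at 12.1 and Hadha at 10.9 lay close together. Hadhb exceeded its partner Hadha 5.73-fold by FPKM and 3.83-fold per kilobase of exon in saline mice, and 5.22-fold and 3.49-fold in PD mice.

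**Figure D4:**
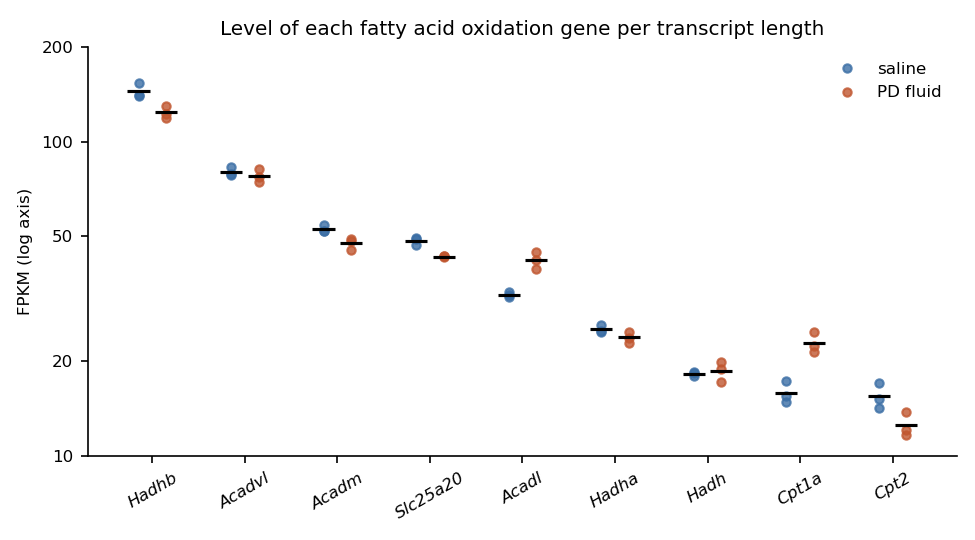
FPKM of the 9 genes above the floor in each mouse on a log axis, ordered by the saline mean, with group means as black lines. Hadhb is highest at 145 FPKM in saline mice, and Cpt1a overlaps Cpt2 in saline mice but Hadha in PD mice.

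Other enzymes of the mitochondrial pathway were examined as well. Of 20 further beta-oxidation genes tested, 2 were called higher and 6 lower, beside 31.1% and 27.8% of all genes tested. Their median log2 fold change was -0.05. Etfa, the alpha subunit of the flavoprotein that takes electrons from the acyl-CoA dehydrogenases, fell from 178 ± 11.3 to 138 ± 12.5 CPM (SD, n = 3 mice), a log2 change of -0.37 (adjusted p = 0.00221). Its partner Etfb (-0.09, adjusted p = 0.350) and Etfdh (0.02, adjusted p = 0.832), which passes the electrons on to ubiquinone, were not called.

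The short-chain dehydrogenase Acads (0.04), the hydratase Echs1 (-0.19) and the thiolase Acaa2 (-0.11) were not called either, with adjusted p of 0.788, 0.113 and 0.204. The largest changes in this list were those of Acot2, Cpt1c and Hsd17b10. Acot2, a matrix acyl-CoA thioesterase, was at -0.97 (adjusted p = 7.34e-05). Cpt1c, a brain CPT1 relative found outside mitochondria, was at 0.96 (adjusted p = 0.0141). Under endothelial marker scaling Cpt1c was at -0.021 and not called, and its call was also lost without saline mouse 1 or PD mouse 2. Hsd17b10, a dehydrogenase of branched chains, was at -0.45 (adjusted p = 0.0029).

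Upstream of the shuttle, 3 of 11 genes of fatty acid activation and carnitine entry were higher and 1 was lower. The shares over all genes tested were 31.1% and 27.8%. The transporters Slc22a4 (1.11, adjusted p = 0.0132), Slc27a4 (0.94, adjusted p = 0.000605) and Slc27a1 (0.69, adjusted p = 6.43e-05) rose on the log2 scale in PD mice. Under endothelial marker scaling Slc22a4 was at 0.12 and Slc27a4 at -0.052, neither of them called, and Slc27a1 was reversed to -0.31. The acyl-CoA synthetase Acsl1 (0.21, 95% interval -0.01 to 0.43) and the carnitine transporter Slc22a5 (0.07, 95% interval -0.17 to 0.31) were not called.

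Among 9 genes of malonyl-CoA control, 2 were higher and 2 lower, beside 31.1% and 27.8% of all genes tested. Acacb encodes the acetyl-CoA carboxylase of the mitochondrial surface, whose product inhibits CPT1. It rose from 2.97 ± 0.63 to 7.42 ± 2.28 CPM (SD, n = 3 mice), a log2 change of 1.32 (adjusted p = 0.000946) that was 0.32 and not called under endothelial marker scaling. Its cytosolic relative Acaca (0.15, adjusted p = 0.411) and malonyl-CoA decarboxylase Mlycd (-0.08, adjusted p = 0.564) were not called. Of the AMPK subunits, Prkaa2 rose by 1.67 from a level below 1 CPM (adjusted p = 0.0121), a call lost under the same scaling, and Prkag1 fell by 0.30 (adjusted p = 0.00554).

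Of 13 regulators tested, 4 were higher and 3 lower, which is close to the shares over all genes tested, 31.1% and 27.8%. Pparg, the adipogenic PPAR, rose from 21.3 ± 2.54 to 39.2 ± 1.61 CPM, by 0.88 (adjusted p = 3.31e-05). Under endothelial marker scaling it was at -0.12 and not called. Its dimer partner Rxra rose from 9.03 ± 2.55 to 23.5 ± 3.83 CPM, by 1.38 (adjusted p = 0.00013). The coactivator Ppargc1a fell from 4.84 ± 0.59 to 2.57 ± 0.33 CPM, a change of -0.92 (adjusted p = 0.00249). Ppara, the PPAR of liver fatty acid oxidation, had 0, 1 and 1 counts in saline mice and 2, 0 and 8 in PD mice and was not tested, and Ppard, at 0.46 and 0.62 CPM, was not called (adjusted p = 0.532).

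Other genes known as PPAR targets were mostly higher, with 8 of 10 tested called higher, 0 lower and a median of 0.97. Over all genes tested, 31.1% were called higher and 27.8% lower. Angptl4, a secreted inhibitor of lipoprotein lipase, rose by 0.65 (adjusted p = 3.67e-05) and Pdk4, which restrains pyruvate entry to the citrate cycle, by 0.42 (adjusted p = 0.0326), both reversed under endothelial marker scaling. Vnn1 (1.98), Creb3l3 (1.56) and Acot1 (1.49) had the largest changes from levels below 1 CPM in saline mice, with adjusted p of 0.0201, 0.037 and 0.00511, and none was called under endothelial marker scaling. The Creb3l3 call was lost with DESeq2 (adjusted p = 0.0574) and without saline mouse 1 or any 1 PD mouse (adjusted p up to 0.0977), that of Vnn1 without PD mouse 2 or 3 (up to 0.0567), and that of Pdk4 without saline mouse 2 or 3 or PD mouse 2 or 3 (up to 0.0922). Macrophages, whose markers were higher in 10 of 10, also express Pparg and several of these genes, and their part in this was not tested.

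**Figure D5:**
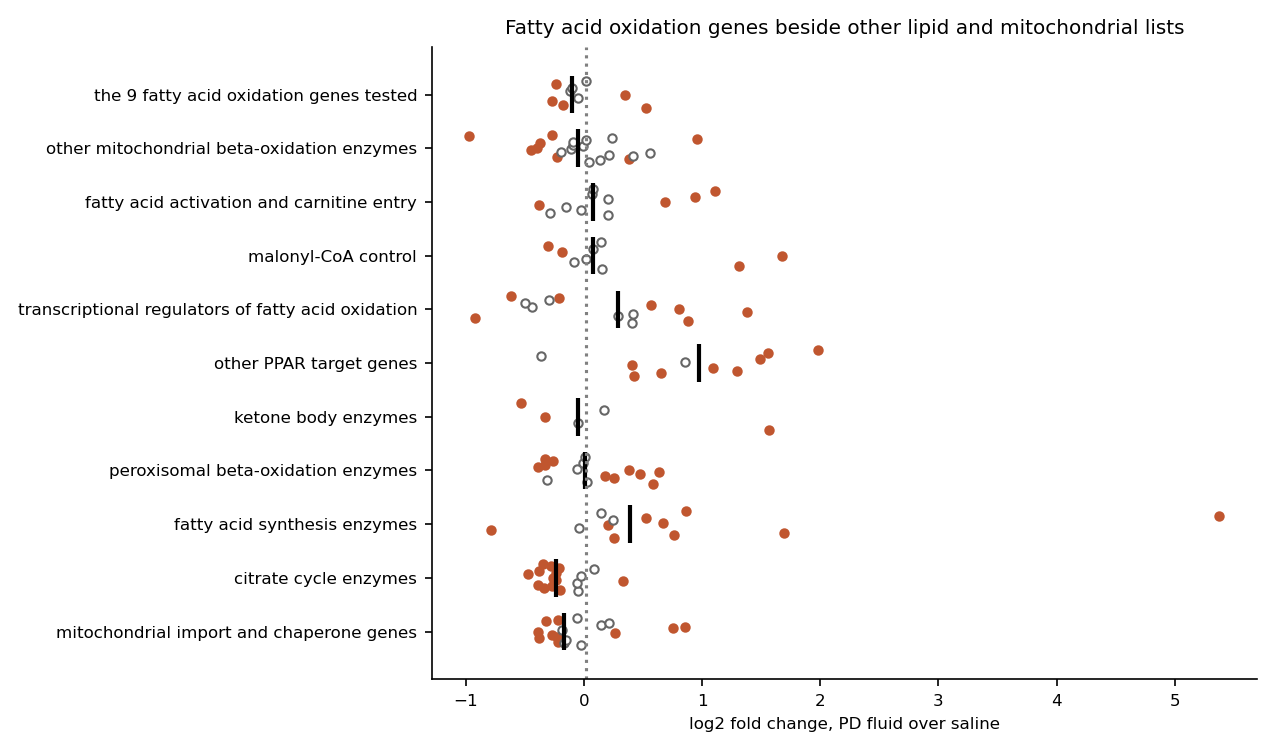
Log2 fold change, PD mice over saline mice, of every gene tested in each list, filled where called, with the list median as a black bar and the median of all genes as a dotted line. The fatty acid oxidation genes spread to both sides of 0, and the PPAR targets have a median of 0.97, on a scale where endothelial marker scaling moves the median of all genes to -0.98.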

How the data were processed

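Cells isolated as peritoneal ECs from 3 saline mice and 3 PD mice were profiled by RNA sequencing. Groups were taken from the sample labels, with 0 sample columns unmatched. The authors deposited a read count and an FPKM value per gene and mouse, with no normalization of the counts. The submitters' processing notes name fastp 0.18.0, Bowtie2 2.2.8, HISAT2, StringTie 1.3.1 and RSEM. The genome build, the annotation and the handling of shared reads are not given in the sources used here. The table also holds the authors' group means, log2 ratio, p-value and FDR, which were not used. No batch is given in the labels.

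Counts were filtered with filterByExpr, scaled by TMM and tested across all genes with edgeR's quasi-likelihood test (edgeR 4.0.16, R 4.3.3) at an adjusted p of 0.05. limma 3.58.1 (voom), DESeq2 1.42.0, total count scaling, scaling to 12 endothelial marker genes, no filter, the replicate number as a block, and leaving out each mouse were alternatives. The study's methods name limma without covariates. Differences between ratios were tested by exact permutation. FPKM values served only for levels between genes. The code was tested on simulated data. Annotation came from GENCODE M21, with 22128 identifiers matched, and promoter windows from RefSeq, read with Python 3.11.15. Replicates of a group differed by more than counting noise. At these depths, no more than 3 counts in each library of a group marked the floor of detection.

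The 10 genes and all lists were chosen with earlier results of these data known. Genes named were the 10 members, 17 set genes of the pathway, 7 markers, and in each list the 3 largest called changes among genes averaging 10 counts or more whose groups did not overlap. Fgb, Cdx2, Myh1 and Myh4 were named for being at 0, Actn2, Lipe, Pnpla2 and Plin4 for being called, and Gm44502, Chkb and Dvl2 for their position, after their values were seen. Of 276 listed symbols, 274 were found. Some genes that this rule names are not reported here.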

Additional observations from a re-analysis of the deposited data

How the results depend on the processing

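DESeq2, limma-voom and total count scaling each gave 2 of the fatty acid oxidation genes higher and 3 lower. The lower calls were the fragile ones. No filter on low counts gave 2 lower, and leaving out each mouse gave between 0 and 3 lower and 2 higher in every fit. Leaving out 36 acinar genes (added after seeing the data) gave 2 lower, with Slc25a20 at an adjusted p of 0.052. Deviations of same-numbered mice had correlations of 0.19, 0.067 and -0.27, and 3 mice a group are too few to show or exclude a pairing. The fit with the replicate block gave 1 lower gene, Hadhb. Scaling to endothelial markers gave 0 higher and 9 lower of the 9 genes, 5 higher and 105 lower of the 129 pathway genes (38 and 38 otherwise), and 1134 higher and 10169 lower of all genes. It reversed the log2 fold change of Cpt1a (-0.47), Acadl (-0.65), Hadh (-0.98), Acads (-0.95), Etfdh (-0.98), Acsl1 (-0.79), Slc22a5 (-0.92), Acaca (-0.84), Ppard (-0.57), Pparg (-0.12), Pdk4 (-0.56), Angptl4 (-0.35), Pecam1 (-0.87), Cdh5 (-0.17), Plin1 (-0.43), Cpt1c (-0.021), Slc27a4 (-0.052), Slc27a1 (-0.31), Abcd2 (-0.37), Thrsp (-0.13), Hspe1 (-0.14) and Hspd1 (-0.24). Single mice turned Hadh (-0.021 without PD mouse 2, range to 0.066), Acads (-0.035 without saline mouse 2 and -0.013 without PD mouse 1, range to 0.11) and Etfdh (-0.021 without saline mouse 3 and -0.0058 without PD mouse 3, range to 0.077), none of which was called. The ratio of Cpt1a to Cpt1b with no prior count could not be computed, since Cpt1b had 0 counts in saline mice. With 3 mice a group, small changes such as those of Slc25a20 and Cpt2 were at the limit of what could be called.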

Other observations

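Peroxisomal beta-oxidation shortens very long chains. Of its 15 genes tested, 6 were called higher and 4 lower, beside 31.1% and 27.8% of all genes tested. The median log2 fold change of the 15 was 0.01. Abcd2, a peroxisomal transporter, rose from 8.63 ± 1.56 to 13.4 ± 2.02 CPM (SD, n = 3 mice), by 0.64 (adjusted p = 0.00634). Under endothelial marker scaling it was at -0.37 and not called. Of 5 ketone body genes, 1 was higher and 2 were lower. Acat1 fell by 0.53 (adjusted p = 6.93e-05) and Bdh1 by 0.33 (adjusted p = 0.0183), a call lost without saline mouse 3, PD mouse 1 or PD mouse 2 (adjusted p up to 0.0832).

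Fatty acid synthesis genes were called higher in 8 of 12 and lower in 1, with a median of 0.39. For this list and the next 2, the shares over all genes tested were 31.1% higher and 27.8% lower. Mlxipl, the glucose-responsive factor ChREBP, went from 0.24 ± 0.09 to 10.1 ± 0.27 CPM, a log2 change of 5.38 (adjusted p = 2.37e-08), Me1, a source of NADPH, rose by 1.69 (adjusted p = 5.39e-05) and Thrsp by 0.87 (adjusted p = 3.51e-05), the last with a reversed sign under endothelial marker scaling. Pancreatic acinar transcripts moved in the same direction in the same mice, and their part in this was not tested. Citrate cycle enzymes were lower in 12 of 17 and higher in 1, with Sucla2 (-0.47, adjusted p = 0.000442), Idh3g (-0.39, adjusted p = 0.00199) and Sdhb (-0.38, adjusted p = 0.00135) the largest. Mitochondrial import and chaperone genes were higher in 3 of 17 and lower in 7. The matrix chaperones Hspe1 (0.86, adjusted p = 1.16e-05) and Hspd1 (0.76, adjusted p = 5.11e-06) rose, with reversed signs under endothelial marker scaling, and the outer membrane channel Vdac2 fell by 0.38 (adjusted p = 0.000633).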
